A study of Mus musculus with 18 samples.

Results

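The mitochondrial genome encodes 13 proteins, all of them subunits of the respiratory chain or of ATP synthase, and the transcripts of 7 were followed here in neutrophils from lupus-prone mice. They were taken as every row of the count table whose symbol starts with mt-Nd, mt-Co, mt-Cytb or mt-Atp, which gave mt-Nd1, mt-Nd2, mt-Co1, mt-Nd4, mt-Nd5, mt-Nd6 and mt-Cytb, 7 of 17941 rows. mt-Co2, mt-Atp8, mt-Atp6, mt-Co3, mt-Nd3 and mt-Nd4l were not analysed here. Spleens of female NZBWF1/J mice, which spontaneously develop lupus with age, were the source, at 14, 20 or 26 weeks, given as 3 disease stages and with no treatment. Each age had 6 biological replicates with 1 RNA sequencing library each, and all 18 libraries shared strain, sex and tissue. The sort took DAPI-negative single cells with Ly6G, CD11b, Ly6b and an intermediate level of Ly6C. The labels do not say whether a replicate was 1 mouse or a pool, so p-values measure the spread between these samples. The series has no mice of a strain without lupus, so a difference between ages cannot be told apart from one between disease stages.

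All 7 transcripts were highest at 26 weeks. Of the 7, 3 were called lower at 20 than at 14 weeks, 5 higher at 26 than at 14 weeks, and 7 higher at 26 than at 20 weeks (edgeR's quasi-likelihood test, Benjamini-Hochberg adjusted p under 0.05). Of all 10104 genes tested, 5.27%, 5.45% and 8.03% were called in those directions. Together they held a small part of each library. Their summed share averaged 0.0239 ± 0.0056% at 14 weeks, 0.0126 ± 0.00448% at 20 weeks and 0.0622 ± 0.0201% at 26 weeks (SD, n = 6 each). The lowest 26 week library had 0.0354%, above the 0.0320% of the highest 14 week library and the 0.0192% of the highest 20 week library. In RNA from a sorted population, fewer cells with a transcript and less of it per cell cannot be told apart.

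Mitochondrial DNA is transcribed from both strands into long precursors, which are cut at tRNAs that lie between the coding sequences. The messengers are polyadenylated and translated on ribosomes inside the organelle. Their protein products join nuclear-encoded subunits in complexes I, III, IV and V, while complex II is built from nuclear genes alone. Neutrophils are known for having few mitochondria and for drawing most of their ATP from glycolysis. NZB mice are known to carry a mitochondrial haplotype that differs from the C57BL/6J reference, and its effect on the counts was not tested.

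The ends of the 7 coding sequences are shown because they differ in how the stop codon is made and in strand. In the GENCODE M21 transcripts of build GRCm38, mt-Nd4 (1378 bases) and mt-Cytb (1144 bases) run 1 base past their last whole codon, and that T becomes a stop codon once the poly(A) tail is added. The other 5 carry a full stop codon. The last 30 bases of each are given 5′ to 3′, with the stop codon or the lone T in capitals.
mt-Nd1: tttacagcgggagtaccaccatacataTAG
mt-Nd2: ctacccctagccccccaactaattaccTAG
mt-Co1: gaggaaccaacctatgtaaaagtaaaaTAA
mt-Nd4: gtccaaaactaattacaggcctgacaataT
mt-Nd5: attatcttatactcaattaatctcgagTAA
mt-Nd6: tttattattatcgagattactcgagatTAA
mt-Cytb: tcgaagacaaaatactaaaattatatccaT

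The first 30 bases show the start codons in capitals, of which mt-Nd1, mt-Nd2 and mt-Nd5 use forms other than ATG.
mt-Nd1: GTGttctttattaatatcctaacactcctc
mt-Nd2: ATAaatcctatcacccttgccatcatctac
mt-Nd5: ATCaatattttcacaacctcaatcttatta
mt-Co1: ATGttcattaatcgttgattattctcaacc
mt-Cytb: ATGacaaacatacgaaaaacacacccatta

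Of the 7, only mt-Nd6 lies on the minus strand of the annotation (chrM:13552-14070), and its end overlaps that of mt-Nd5 (chrM:11742-13565) by 14 bases. Those 14 bases are in capitals in the last 40 bases of each gene, read on its own strand. No source used here gives the strand setting of the authors' counting, so reads of the shared bases cannot be assigned to 1 of the 2 genes.
mt-Nd5: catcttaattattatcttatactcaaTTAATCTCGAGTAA
mt-Nd6: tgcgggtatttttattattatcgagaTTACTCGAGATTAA

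Parts of mitochondrial DNA also exist as copies in nuclear chromosomes, and a read that matches both places equally well has no single origin. Windows of 100 bases, the read length, were compared with all annotated transcripts outside the mitochondrial genome. No window of mt-Nd1, mt-Nd5, mt-Nd6 or mt-Cytb had an identical copy there. For mt-Nd2 the share was 3.19%, for mt-Co1 30.8% and for mt-Nd4 60.8%, most of it in pseudogenes on chromosomes 1 and 2. In mt-Nd4 these windows cover the first 876 of its 1378 bases. Among the coding sequences not analysed here, mt-Co2, mt-Atp6, mt-Co3, mt-Nd3 and mt-Nd4l had copies of 97.6 to 99.9% of their windows and mt-Atp8 of 0%. Levels of mt-Co1 and mt-Nd4 are therefore uncertain, and copies in unannotated sequence were not looked for.

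Libraries held 5546624 to 17256379 counts, and 10104 symbols, among them all 7 mitochondrial transcripts, had enough counts to be tested. The 12 neutrophil marker genes were all detected in the table and their CPM summed to between 45475 and 326144 per library. Replicate 3 of 20 weeks stood apart, with counts in 8119 genes against 10530 to 12708 in the other libraries of that age. It had 1 count of mt-Nd5 and 0 of mt-Nd6, and 0 of its 9382297 counts allows a level of up to 0.32 CPM before scaling, which covers counting error only. Without it, 3, 7 and 7 of the 7 transcripts were called in 20 against 14, 26 against 14 and 26 against 20 weeks. Of all genes tested in that fit, 10.9%, 14% and 17.4% were called in either direction in the same order. At 26 against 14 weeks 1461 genes were called without that library and 1111 with it, so calls were gained beyond the 7 transcripts too. Levels below are CPM, counts scaled to library size and by TMM factors that correct for library composition, and SD and n refer to the 6 libraries of an age.

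**Figure D1:**
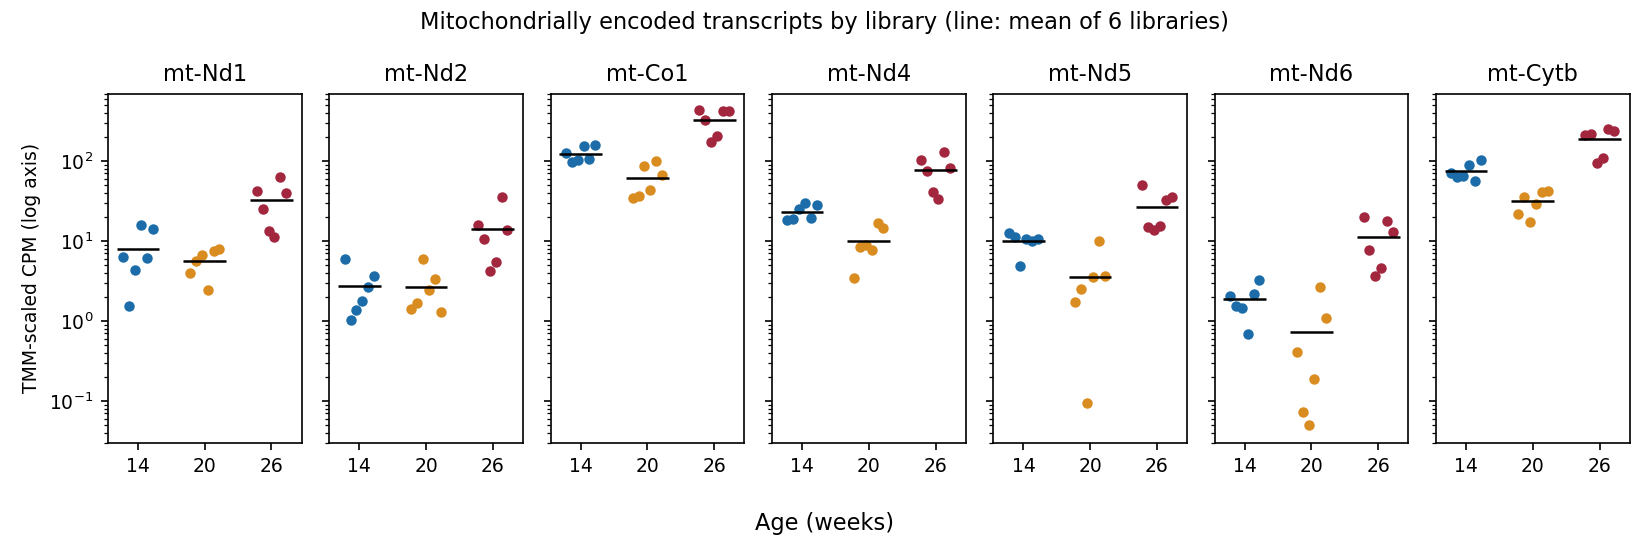
TMM-scaled CPM of each transcript on a log axis, 1 point per library, at 14, 20 and 26 weeks, with a line at the mean of 6 libraries; a value of 0 (mt-Nd6, replicate 3 of 20 weeks) is drawn at 0.05. The 26 week points of mt-Co1, from 174.9 to 431.6 CPM, lie above all points of the younger ages.

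mt-Co1 encodes the catalytic subunit of cytochrome c oxidase (complex IV), where electrons reach oxygen. It lies at chrM:5328-6872 on the plus strand, as 1 exon like all the genes described here, and was the most abundant of the 7. Its lowest, median and highest levels were 96.9, 117.1 and 158.1 CPM at 14 weeks, 34.2, 55.8 and 101.5 CPM at 20 weeks, and 174.9, 370.9 and 431.6 CPM at 26 weeks. At 26 weeks every library was above every library of the other ages. At 20 weeks 5 of 6 libraries were below the whole 14 week group. The log2 fold change was -1.01 ± 0.28 (SE, adjusted p = 0.0269) for 20 against 14 weeks, 1.40 ± 0.28 (adjusted p = 0.00473) for 26 against 14 weeks and 2.41 ± 0.29 (adjusted p = 9.91e-05) for 26 against 20 weeks. The call at 20 against 14 weeks was lost without replicate 4 or 6 of 14 weeks and without replicate 2 or 4 of 20 weeks, with log2 changes of -0.94 to -0.90 and adjusted p of 0.0561 to 0.0658. It was also lost with offsets for gene length (-0.84, adjusted p = 0.103) and for GC content (-0.69, adjusted p = 0.169). The call at 26 against 14 weeks was lost with offsets for gene length (0.99, adjusted p = 0.0847).

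mt-Cytb encodes cytochrome b, the mitochondrially encoded subunit of complex III, which passes electrons from ubiquinol to cytochrome c. It lies at chrM:14145-15288 on the plus strand. Its lowest, median and highest levels were 56.0, 68.3 and 102.7 CPM at 14 weeks, 17.3, 32.4 and 42.9 CPM at 20 weeks, and 95.2, 215.5 and 255.2 CPM at 26 weeks. All 20 week libraries were below all 14 week libraries, and 5 of 6 libraries at 26 weeks were above them. It fell at 20 weeks by 1.25 ± 0.27 on the log2 scale relative to 14 weeks (adjusted p = 0.0054), a call kept in all 30 alternative fits (adjusted p up to 0.0331). At 26 weeks it was higher by 1.33 ± 0.27 than at 14 weeks (adjusted p = 0.00462) and by 2.58 ± 0.28 than at 20 weeks (adjusted p = 4.94e-05). The call at 26 against 14 weeks was lost with offsets for gene length (0.73, adjusted p = 0.0657).

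mt-Nd4, with the other mt-Nd genes, encodes a subunit of the membrane arm of complex I, the NADH dehydrogenase at which electrons enter the chain. It lies at chrM:10167-11544 on the plus strand. The 6 libraries had 18.2, 22.3 and 30 CPM (lowest, median, highest) at 14 weeks, 3.45, 8.62 and 16.7 CPM at 20 weeks, and 33.8, 77.6 and 130.7 CPM at 26 weeks. The 3 ages did not overlap, in the order 20, 14 and 26 weeks from low to high. Log2 fold changes were -1.24 ± 0.35 (adjusted p = 0.0294) for 20 against 14, 1.72 ± 0.35 (adjusted p = 0.00492) for 26 against 14 and 2.96 ± 0.37 (adjusted p = 0.000119) for 26 against 20 weeks. As for mt-Co1, the first of these calls was lost without replicate 4 or 6 of 14 weeks or replicate 2 or 4 of 20 weeks, with log2 changes of -1.19 to -1.15 and adjusted p of 0.0551 to 0.0683. It was also lost with limma-voom (-1.31, adjusted p = 0.0858), in the fit of the 2 ages alone (-1.22, adjusted p = 0.0505) and with GC content offsets (-0.96, adjusted p = 0.076).

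mt-Nd5 (chrM:11742-13565, plus strand) is the longest of the 7 genes. Its levels were 4.89, 10.5 and 12.6 CPM at 14 weeks, 0.0958, 3.02 and 10.0 CPM at 20 weeks, and 13.6, 24.2 and 50.1 CPM at 26 weeks (lowest, median, highest). Every 26 week library was above every younger one. It was higher by 2.90 ± 0.62 at 26 than at 20 weeks (adjusted p = 0.00335), while 1.43 ± 0.59 for 26 against 14 weeks (adjusted p = 0.132) and -1.47 ± 0.59 for 20 against 14 weeks (adjusted p = 0.133) did not pass. Without replicate 5 of 20 weeks, the highest of its age, 20 against 14 weeks passed (adjusted p = 0.0263), and without replicate 3 of 20 weeks 26 against 14 weeks passed (adjusted p = 0.0305), as it did with limma-voom (adjusted p = 0.0144) and in the fit of those 2 ages alone (adjusted p = 0.0127).

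mt-Nd1 (chrM:2751-3707, plus strand) and mt-Nd2 (chrM:3914-4951, plus strand) are the first 2 coding sequences after the ribosomal RNA genes. mt-Nd1 had 1.54, 6.20 and 16 CPM at 14 weeks, 2.43, 6.08 and 7.93 CPM at 20 weeks, and 11.2, 32.8 and 63.5 CPM at 26 weeks (lowest, median, highest). The 20 and 14 week groups overlapped and their difference did not pass the test (-0.50 ± 0.51, adjusted p = 0.63). At 26 weeks mt-Nd1 was higher by 2.01 ± 0.53 than at 14 weeks (adjusted p = 0.0183) and by 2.52 ± 0.54 than at 20 weeks (adjusted p = 0.00335).

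mt-Nd2 had 1.02, 2.25 and 6.03 CPM at 14 weeks, 1.31, 2.05 and 6.03 CPM at 20 weeks, and 4.25, 12.2 and 35.6 CPM at 26 weeks. Only 12 to 170 counts per library lie behind these values. Its 26 week libraries overlapped both younger ages, with 4 of 6 above each. It was higher at 26 than at 14 weeks by 2.36 ± 0.62 (adjusted p = 0.0181) and than at 20 weeks by 2.39 ± 0.62 (adjusted p = 0.0115), and 20 against 14 weeks gave -0.03 ± 0.59 (adjusted p = 0.983). Without replicate 5 of 26 weeks, the library with the highest mt-Nd1 and mt-Nd2 levels, both calls at 26 against 14 weeks were lost (adjusted p = 0.0579 and 0.0707). Both were also lost with offsets for gene length (1.28, adjusted p = 0.164, and 1.67, adjusted p = 0.149).

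mt-Nd6 is the only protein gene transcribed from the opposite strand, and in human cells its messenger is described as having no long poly(A) tail. It was the least abundant of the 7 by CPM at 14, 20 and 26 weeks, with 8 to 38, 0 to 27 and 45 to 170 counts per library. Levels were 0.686, 1.81 and 3.29 CPM at 14 weeks, 0, 0.299 and 2.66 CPM at 20 weeks, and 3.69, 10.3 and 20.1 CPM at 26 weeks (lowest, median, highest). All 26 week libraries were above all younger ones, and the 20 and 14 week groups overlapped. It was higher at 26 than at 20 weeks by 3.90 ± 0.90 (adjusted p = 0.00571), the largest fitted change among the 7. The fits gave 2.56 ± 0.85 for 26 against 14 weeks (adjusted p = 0.0578) and -1.34 ± 0.83 for 20 against 14 weeks (adjusted p = 0.367). The value for 26 against 14 weeks passed in 8 of 29 alternative fits, among them DESeq2 and limma-voom, and its adjusted p ran from 0.00388 to 0.213.

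**Figure D2:**
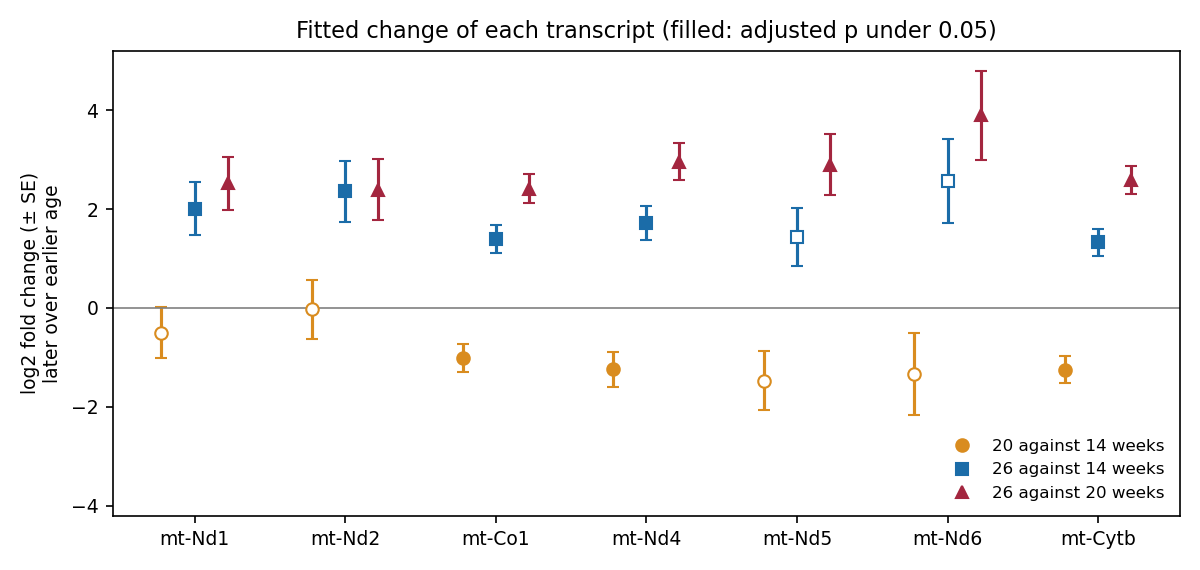
Fitted log2 fold change of the later over the earlier age for each transcript, with SE bars; filled symbols have adjusted p under 0.05. All 7 symbols for 26 against 20 weeks are filled and lie between 2.39 and 3.90, and those for 20 against 14 weeks lie between -1.47 and -0.03.

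At 20 against 14 weeks, mt-Co1, mt-Cytb and mt-Nd4, the 3 most abundant transcripts, fell and 0 of 7 rose. The median log2 change of the 7 was -1.24, against -0.02 over all genes tested, of which 10.2% were called, 4.93% higher and 5.27% lower. For 2 of the 7 the 20 week libraries lay wholly below the 14 week libraries, as did 3.93% of all genes tested, while 2.97% lay wholly above. With offsets for GC content 1 of the 7, mt-Cytb, was called at 20 against 14 weeks. The counts of the other 4 were lower, and their SE of 0.51 to 0.83 was larger than that of the called 3 (0.27 to 0.35). Their fitted changes differed, with -1.47 for mt-Nd5 and -1.34 for mt-Nd6 but -0.50 for mt-Nd1 and -0.03 for mt-Nd2.

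At 26 against 14 weeks, mt-Co1, mt-Cytb, mt-Nd1, mt-Nd2 and mt-Nd4 rose and 0 of 7 fell. The median log2 change was 1.72, against 0.04 over all genes tested, of which 11% were called, 5.45% higher and 5.54% lower. The 26 week libraries were wholly above the 14 week libraries for 4 of the 7 and for 2.90% of all genes tested, and wholly below for 3.86%. Short nuclear genes moved in the same comparison. The median log2 change was 0.80 for the 745 tested genes with a longest transcript under 1000 bases, 0.44 for the 1688 genes from 1000 to 2000 bases and -0.21 for the 3331 genes from 4000 bases. The mitochondrial genes span 519 to 1824 bases. With offsets that take a curve on gene length out of each library, only mt-Nd4 of the 7 was called (adjusted p = 0.0477), and the other 4 had adjusted p from 0.0657 to 0.164. All 7 kept a positive log2 change under every alternative tried for this comparison.

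At 26 against 20 weeks all 7 rose, with a median log2 change of 2.58 against 0.05 over all genes tested, of which 16% were called, 8.03% higher and 7.98% lower. For 6 of the 7, all but mt-Nd2, the 26 week libraries were wholly above the 20 week libraries, as were 3.69% of all genes tested, while 2.27% were wholly below. Short nuclear genes moved here too: the median log2 change was 0.61 under 1000 bases, where 20.5% were called higher, and 0.35 from 1000 to 2000 bases, where 14.0% were. The 7 calls held in each of the 18 fits that left out 1 library and under other scaling factors, and mt-Nd2 lost its call with length offsets (adjusted p = 0.129). Over the 3 ages, a test of any change called all 7, as it did 23.0% of all genes tested.

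The 26 week libraries differed among themselves. Replicates 3 and 4 had the lowest levels of 6 of the 7 transcripts, and replicate 5 the highest of 4. Summed over the 7, the levels of replicates 1 to 6 were 876.3, 673.3, 346.6, 386.0, 954.4 and 839.8 CPM. Replicate 3 was also the largest library of the series (17256379 counts) and replicate 5 the smallest (5546624 counts). Over all 18 libraries, the mean log2 CPM of the 7 and the log2 library total had a Pearson r of -0.588 once each age was centred on its mean, and the part of depth in the levels was not tested.

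**Figure D3:**
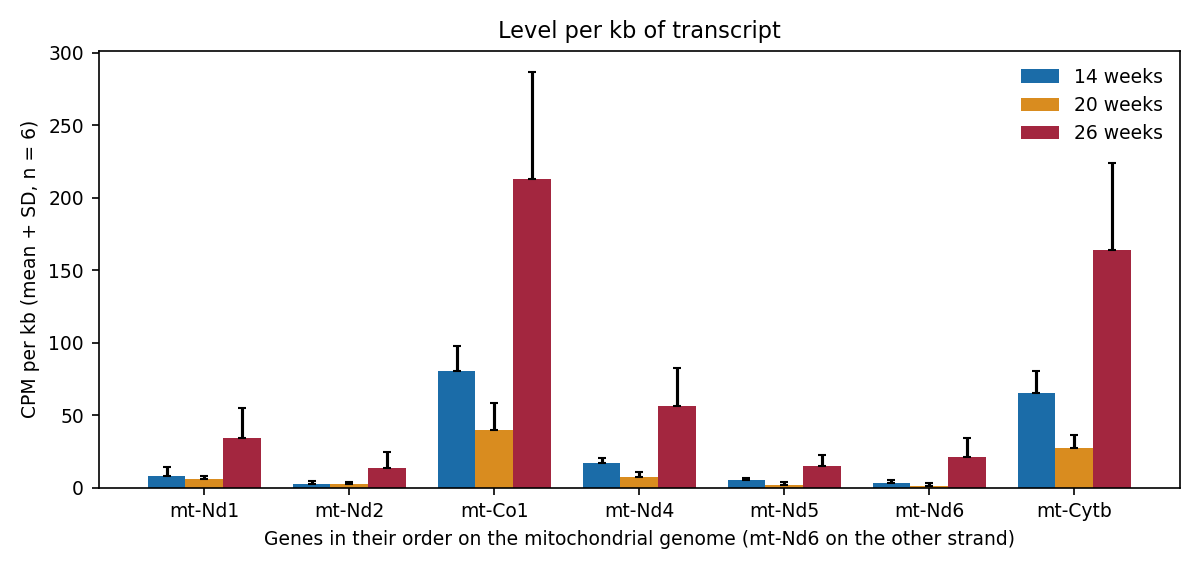
Level of each transcript as CPM per kb (bars from 0, mean with SD above, 6 libraries an age), in the order of the genes along the mitochondrial genome. mt-Co1 and mt-Cytb stand highest at each age, at 213.0 and 164.3 CPM per kb at 26 weeks.

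Per kb of transcript, the order of the first 4 was the same at each age, namely mt-Co1, mt-Cytb, mt-Nd4 and mt-Nd1. Mean levels of mt-Co1 were 80.4 ± 17.1, 40 ± 18.2 and 213.0 ± 74.1 CPM per kb at 14, 20 and 26 weeks. Those of mt-Cytb were 65.2 ± 15.6, 27.5 ± 9.12 and 164.3 ± 59.8 CPM per kb. mt-Co1 was above mt-Cytb in 6, 5 and 6 of 6 libraries at the 3 ages, although the means at each age differed by less than the sum of their SD. mt-Nd4 (17.0 ± 3.78, 7.21 ± 3.50 and 56.1 ± 26.6 CPM per kb) was below mt-Cytb in every library. Spread over windows without an identical nuclear copy, mt-Nd4 had 46.6 ± 10.4, 19.8 ± 9.59 and 154.1 ± 72.9 CPM per 1000 windows at 14, 20 and 26 weeks. On that scale mt-Cytb had 71.3 ± 17.1, 30.1 ± 9.98 and 179.9 ± 65.4, and the means of both at each age differed by less than the sum of their SD. Both were measured in the same libraries, so the SD between libraries cannot decide their order. The scale takes reads with several matches as not counted, which no source used here gives.

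The 3 lowest transcripts per kb changed places with age. mt-Nd5, mt-Nd6 and mt-Nd2 followed in this order at 14 weeks (5.48 ± 1.46, 3.62 ± 1.69 and 2.66 ± 1.79 CPM per kb). At 26 weeks mt-Nd6 had 21.4 ± 13.2, mt-Nd5 14.8 ± 8.13 and mt-Nd2 13.7 ± 11 CPM per kb. Neighbours in these orders were reversed in 1 or 2 of 6 libraries and do not differ beyond their spread. For each count of mt-Nd5 there were 0.189 counts of mt-Nd6 at 14 weeks, 0.197 at 20 weeks and 0.388 at 26 weeks, summed over the libraries of an age. In single libraries that ratio ran from 0.271 to 0.532 at 26 weeks and from 0.0656 to 0.311 at 14 weeks, so the ages overlapped.

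**Figure D4:**
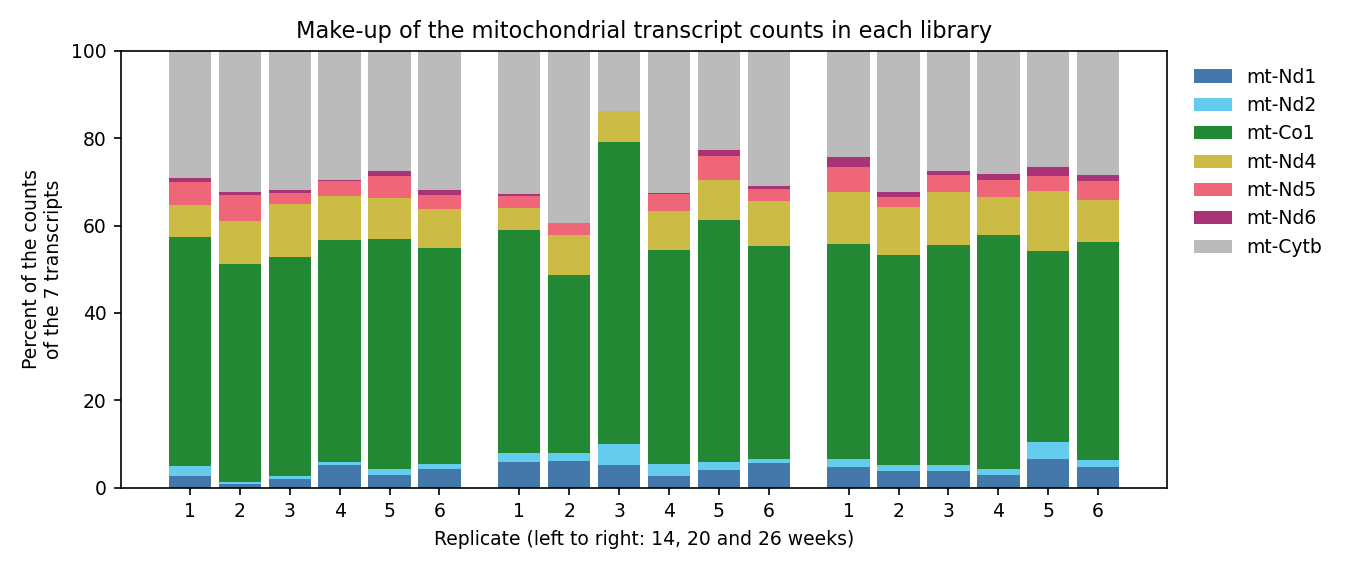
Share of each transcript in the summed counts of the 7, as stacked bars to 100%, 1 bar per library. mt-Co1 and mt-Cytb fill most of each bar, and replicate 3 of 20 weeks differs from the rest with 69.1% mt-Co1 and 13.8% mt-Cytb.

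mt-Co1 took 50.8 ± 1.34%, 52.3 ± 9.48% and 49.2 ± 3.19% of their counts at 14, 20 and 26 weeks. mt-Cytb took 30.4 ± 1.94%, 28.6 ± 9.03% and 27.9 ± 2.57%, and mt-Nd4 9.64 ± 1.54%, 8.27 ± 1.86% and 11.1 ± 1.77%. These shares differed between ages by no more than the sum of the SD. mt-Nd6 had 0.783 ± 0.306%, 0.524 ± 0.549% and 1.52 ± 0.481%. Over the 21 pairs of the 7, Pearson r of log2 CPM over 18 libraries ran from 0.511 for mt-Nd2 with mt-Nd5 to 0.966 for mt-Co1 with mt-Nd4. With each age centred on its mean it ran from 0.053 to 0.827 for the same pairs, with a median of 0.592. All 7 share the library, its depth and its scaling factor.

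A nuclear pseudogene that resembles mt-Co1 was also counted. Gm13340 (chr2:22588103-22589647, minus strand) shares some 100-base windows with mt-Co1 and had 3746 counts over the 18 libraries. Its counts were 12.1 ± 1.17%, 10.7 ± 1.34% and 13.2 ± 2.45% of those of mt-Co1 at 14, 20 and 26 weeks. Like mt-Co1 it was lower at 20 than at 14 weeks (-1.22 ± 0.34, adjusted p = 0.0272) and higher at 26 than at 14 weeks (1.58 ± 0.34, adjusted p = 0.00622). Whether these reads came from the nuclear copy or from mitochondrial RNA cannot be told apart in a table of counts. The other pseudogenes with identical windows had at most 76 counts in all where the table lists them.

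The mitochondrial ribosomal RNAs, mt-Rnr1 (12S) and mt-Rnr2 (16S), are made from the same strand as 6 of the 7 messengers. mt-Rnr2 averaged 187.9 ± 15.3, 230.5 ± 114.3 and 926.7 ± 572.6 CPM at 14, 20 and 26 weeks. It was higher at 26 than at 14 weeks (2.30 ± 0.40, adjusted p = 0.00198) and than at 20 weeks (2.01 ± 0.39, adjusted p = 0.00185). Of the 6 libraries at 26 weeks, 5 were above every 20 week library. At 20 against 14 weeks, where the 3 abundant messengers fell, mt-Rnr2 had a log2 change of 0.29 ± 0.38 (adjusted p = 0.72). Its counts per count of the 7 messengers were 0.793 ± 0.147 at 14 weeks, 1.94 ± 0.752 at 20 weeks and 1.29 ± 0.411 at 26 weeks, and the lowest 20 week library (1.08) was above the highest 14 week library (0.938). No test of that ratio was run.

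mt-Rnr1 was higher at 26 weeks too, by 2.79 ± 0.70 than at 14 weeks (adjusted p = 0.0143) and by 3.26 ± 0.72 than at 20 weeks (adjusted p = 0.00416). Of 7 rows of mitochondrial tRNAs, which are short and not polyadenylated messengers, 1 had enough counts to be tested. That row, mt-Ty, the tyrosine tRNA next to mt-Co1 on the other strand, was higher at 26 than at 20 weeks (3.00 ± 0.82, adjusted p = 0.0166). It did not pass at 26 against 14 weeks (1.54 ± 0.78, adjusted p = 0.243) or at 20 against 14 weeks (-1.46 ± 0.79, adjusted p = 0.283). The 20 week libraries held only 1 to 9 counts of mt-Ty each.

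Nuclear genes for subunits of the same complexes were counted beside the 7. Of 74 tested nuclear subunits of complexes I, III, IV and V, 49 rose and 0 fell at 26 against 14 weeks (median 1.41). At 26 against 20 weeks 50 rose and 0 fell (median 1.37), and at 20 against 14 weeks 1 rose and 1 fell (median -0.02). In the same order of comparisons, 5.45%, 8.03% and 4.93% of all genes tested were called higher, and 5.54%, 7.98% and 5.27% lower. The medians of all genes were 0.04, 0.05 and -0.02. Of tested genes with a longest transcript under 1000 bases, 20.3% were called higher at 26 against 14 weeks (median 0.80). The part of gene length in the counts of these subunits was not tested. By complex, 20 of 35 subunits of complex I, 8 of 9 of complex III, 11 of 12 of complex IV and 10 of 18 of complex V rose at 26 against 14 weeks. In complex IV, Cox6c had 56.5 ± 33.1 CPM at 26 weeks and 10.9 ± 2.37 CPM at 14 weeks (2.37 ± 0.37, adjusted p = 0.00149). In complex III, Uqcrb had 29.3 ± 18.7 CPM at 26 weeks and 7.49 ± 1.42 CPM at 14 weeks (1.96 ± 0.44, adjusted p = 0.00723). In complex I, Ndufv3 was the subunit that fell at 20 weeks, with 16.9 ± 6.90 CPM at 20 weeks and 34.9 ± 5.80 CPM at 14 weeks (-1.05 ± 0.29, adjusted p = 0.0267).

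In complex II, which has no mitochondrially encoded subunit, Sdhb (0.72 ± 0.17, adjusted p = 0.0108) and Sdhc (0.94 ± 0.29, adjusted p = 0.0391) rose at 26 against 14 weeks. Sdha, the flavoprotein subunit, was higher at 20 than at 14 weeks (0.66 ± 0.20, adjusted p = 0.041) and lower at 26 than at 20 weeks (-0.75 ± 0.20, adjusted p = 0.0142).

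Of 68 tested proteins of the mitochondrial ribosome, which translates these messengers, 10 rose and 1 fell at 26 against 14 weeks, with a median of 1.14. At 26 against 20 weeks 8 rose and 0 fell (median 0.91), and at 20 against 14 weeks 2 rose and 1 fell (median 0.12). In the same order of comparisons, 5.45%, 8.03% and 4.93% of all genes tested were called higher, and 5.54%, 7.98% and 5.27% lower. The medians of all genes were 0.04, 0.05 and -0.02. Of tested genes with a longest transcript under 1000 bases, 20.3% were called higher at 26 against 14 and 20.5% at 26 against 20 weeks. From 1000 to 2000 bases these shares were 11.6% and 14.0%. The part of gene length in the counts of these ribosomal proteins was not tested. Mrps14 had 27.7 ± 14.1 CPM at 26 weeks and 7.06 ± 1.86 CPM at 14 weeks (1.97 ± 0.46, adjusted p = 0.00996). Other nuclear genes copy and transcribe mitochondrial DNA and process its RNA. Of 23 tested, 0 rose and 0 fell at 26 against 14 weeks (median 0.11), and 0 rose and 1 fell at 20 against 14 weeks (median -0.11). At 26 against 20 weeks 2 rose and 1 fell (median 0.45), where 8.03% of all genes tested were called higher and 7.98% lower. Fastkd3, called lower at 20 against 14 and higher at 26 against 20 weeks, had 1.33 ± 1.07, 0 and 0.70 ± 0.971 CPM at 14, 20 and 26 weeks. Hsd17b10, a subunit of mitochondrial RNase P, was higher at 26 than at 20 weeks (1.39 ± 0.31, adjusted p = 0.00467), and Polg, the catalytic subunit of the mitochondrial DNA polymerase, lower (-0.97 ± 0.23, adjusted p = 0.00762). Tfam, which packages mitochondrial DNA and starts its transcription, had log2 changes of -1.93 ± 1.35 (adjusted p = 0.444), 0.97 ± 1.31 (adjusted p = 0.746) and 2.89 ± 1.40 (adjusted p = 0.177) for 20 against 14, 26 against 14 and 26 against 20 weeks.

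Of 14 tested genes of mitochondrial biogenesis and turnover, 2 rose at 20 against 14 weeks and 0 fell, 1 fell at 26 against 14 weeks, and 5 fell and 0 rose at 26 against 20 weeks. Over all genes tested, 4.93% were called higher at 20 against 14 weeks. At 26 against 14 and 26 against 20 weeks, 5.54% and 7.98% of them were called lower. Bnip3, a receptor for the removal of mitochondria by autophagy, had 59.2 ± 17.5 CPM at 20 weeks and 20.8 ± 10.6 CPM at 14 weeks (1.51 ± 0.34, adjusted p = 0.00704). It was lower at 26 than at 20 weeks (-1.38 ± 0.34, adjusted p = 0.00848). Pink1, a kinase of the same process, fell at 26 weeks relative to 14 weeks (-0.66 ± 0.20, adjusted p = 0.0431) and to 20 weeks (-0.67 ± 0.20, adjusted p = 0.0295). Nrf1, a transcription factor for nuclear respiratory genes, fell at 26 against 20 weeks (-0.76 ± 0.20, adjusted p = 0.0119).

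**Figure D5:**
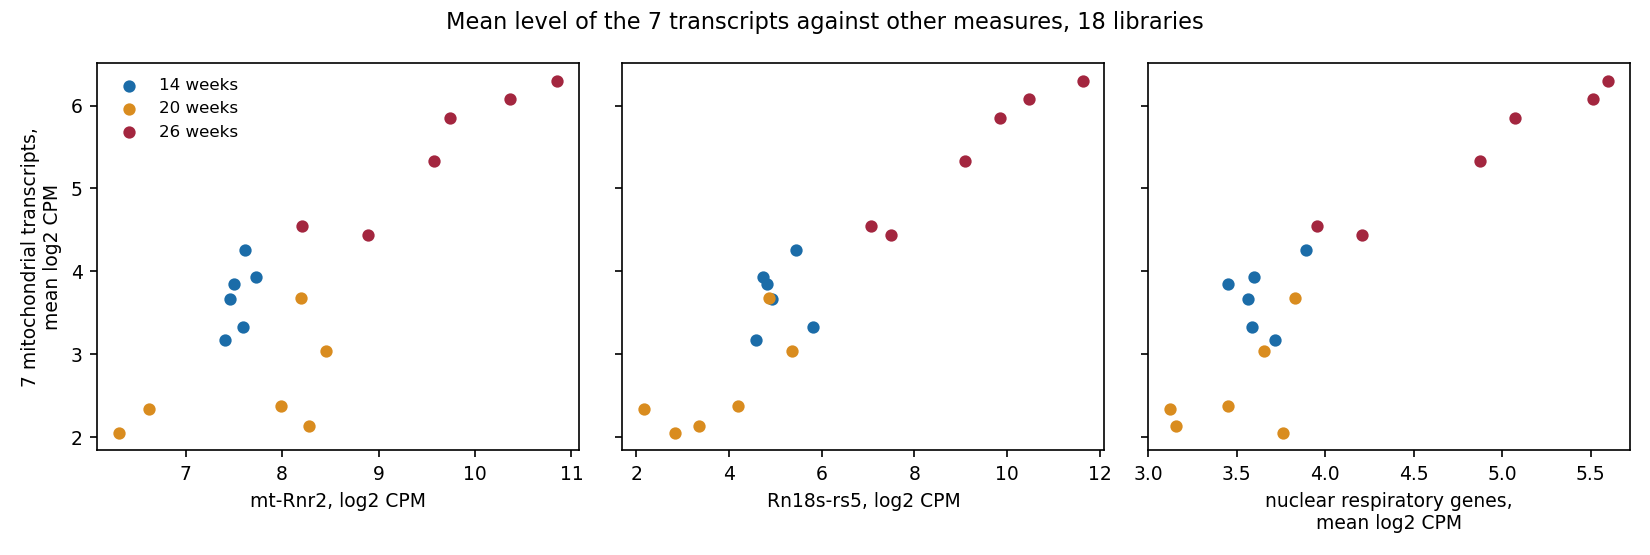
Mean log2 CPM of the 7 transcripts in each of 18 libraries (vertical axis) against log2 CPM of mt-Rnr2, log2 CPM of Rn18s-rs5 and the mean log2 CPM of 74 nuclear respiratory genes. The 26 week libraries lie highest in each panel, and furthest right for Rn18s-rs5 and the nuclear genes. For mt-Rnr2, replicate 4 of 26 weeks (8.21) lies left of replicates 3 and 6 of 20 weeks (8.28 and 8.45).

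The comparison took 4231 tested genes whose mean log2 CPM was 4 or more. Symbols starting with mt- or with Gm and a digit, or ending in Rik, were left out, so mt-Rnr2 and Gm13340 were not ranked. The 10 whose log2 CPM most resembled the mean of the 7 over 18 libraries were Rn18s-rs5, AA467197, Fam96a, Psmb4, S100a8, Rpl7, Myl6, Fpr2, Wfdc21 and Abracl. Pearson r ran from 0.952 for Rn18s-rs5 to 0.932 for Abracl, and the median gene had -0.063. With each age centred on its mean, Rn18s-rs5 had 0.819 and S100a8, a calprotectin subunit gene, 0.732. All these values share libraries and scaling factors with the 7.

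Rn18s-rs5 is a row of cytosolic 18S ribosomal RNA. It averaged 34.5 ± 12.6, 18.2 ± 14.3 and 1058 ± 1136 CPM at 14, 20 and 26 weeks, and was higher at 26 than at 14 weeks by 4.94 ± 0.72 (adjusted p = 0.000983). Among the 26 week libraries, replicates 3 and 4 had the lowest values (180.1 and 134.3 CPM) and replicate 5 the highest (3162 CPM). Lars2, a mitochondrial leucyl-tRNA synthetase gene, averaged 190.6 ± 39.3, 166.1 ± 89.7 and 2546 ± 2608 CPM at the 3 ages. Among the 26 week libraries, Lars2 too was lowest in replicates 3 and 4 (607.6 and 313.1 CPM) and highest in replicate 5 (7259 CPM). Whether its counts came from the Lars2 messenger or from ribosomal RNA was not tested. Of 79 tested cytosolic ribosomal protein genes, 48 rose and 0 fell at 26 against 14 weeks, with a median of 1.91. Over all genes tested, 5.45% were called higher and 5.54% lower in that comparison, with a median of 0.04. Within an age, r between the mean of the 7 and Rn18s-rs5 was 0.078, 0.750 and 0.980 at 14, 20 and 26 weeks, each over 6 libraries, and their part in the result was not tested.

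Markers of other cells were summed in each library. Beside the calls given here, 4.93% of all genes tested were called higher and 5.27% lower at 20 against 14 weeks. The shares were 5.45% and 5.54% at 26 against 14 weeks, and 8.03% and 7.98% at 26 against 20 weeks. The CPM summed over 5 B cell markers in the table ran from 49.5 to 197.0 at 14 weeks, 236.4 to 1873 at 20 weeks and 82.8 to 293.6 at 26 weeks, and 2 of 4 tested were called higher at 20 against 14 weeks. That of 6 plasma cell markers ran from 128.5 to 185.8, 349.5 to 2075 and 183.6 to 688.8 CPM, and 3 of 3 tested were called higher at 20 against 14 and at 26 against 14 weeks. For 9 monocyte and macrophage markers the sums were 766.2 to 1000, 805.4 to 1288 and 757.1 to 1581 CPM, with 3 of 4 tested higher and 1 lower at 20 against 14 weeks. T cell markers summed to 117.1 to 149.6, 50 to 102.1 and 98.2 to 381.7 CPM. Ms4a1, Pax5, Cd3e, C1qa, Mcpt8 and all listed NK cell, dendritic cell and erythroid markers were not among the genes with enough counts to be tested. The 12 neutrophil markers summed to medians of 166656, 77707 and 263542 CPM, with 9 called lower and 1 higher at 20 against 14 weeks, and 6 higher and 3 lower at 26 against 14 weeks. At 26 against 20 weeks, where all 7 transcripts were called, 8 of the 12 neutrophil markers were higher and 1 lower. In that comparison 1 B cell marker was lower, 2 plasma cell markers were lower, 1 T cell marker was higher, and 1 monocyte and macrophage marker was higher and 3 lower. Erythroid markers summed to 0 to 2.08, 0 to 6.82 and 0.227 to 249.5 CPM at 14, 20 and 26 weeks, with a 26 week median of 8.19 CPM. NK cell markers summed to at most 13.2 CPM and dendritic cell markers to at most 5.52 CPM in any library. For 3 eosinophil markers in the table the sums were 5.83 to 20.5, 32.5 to 76.9 and 8.29 to 35.7 CPM at 14, 20 and 26 weeks. Of 2 tested, 1 was called higher at 20 against 14 weeks. Basophil and mast cell markers summed to at most 2.82, 19.5 and 0.518 CPM, and platelet markers to at most 3.23, 5.02 and 8.77 CPM. The part of other cells in the levels of the 7 transcripts was not tested.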

How the data were processed

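Reads per gene were counted in 18 libraries (6 each of 14, 20 and 26 weeks, grouped by the titles). The deposited values are raw counts per gene symbol, made by the authors. Per the submitters' processing notes, which state no roles, the build was GRCm38.p4 and the tools were DESeq, DESeq2 1.12.3, HTSeq 0.6.1, STAR 2.4.2a and Trimmomatic 0.32. No source used here gives the gene annotation, the strand setting or the treatment of reads with several matches. Per the labels' protocols, RNA came from RNeasy Plus Micro columns, Nextera XT libraries were built on cDNA, and reads were single-end. The labels name the molecule as polyA RNA. Library totals were 5546624 to 17256379 counts. Replicates of an age differed by more than counting error (mean chi-square per gene 26.1 to 182), and the floor for a count of 0 (3 counts) covers counting error only.

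The whole table was fitted in R 4.3.3 by edgeR 4.0.16: TMM factors, filterByExpr, robust quasi-likelihood F tests, age as the only term, Benjamini-Hochberg adjustment over the 10104 genes tested and a threshold of 0.05. SE is the log2 fold change over the square root of F. Log2 CPM used a prior count of 2. The fitting code was tested on simulated data. Alternatives were RLE, upper quartile and total scaling, mitochondrial rows left out of scaling, other filters, DESeq2 1.42.0, limma 3.58.1 with voom, a fit of 2 ages at a time, a replicate block, loess offsets for GC content or length (9653 of 10104 tested genes had values), and each library left out. Same-numbered libraries were not paired by their deviations (r from -0.0527 to 0.136 in 18 pairs). Coordinates and sequences are from GENCODE M21 (GRCm38), matched by symbol for 16809 of 17941 rows.

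The named genes are all 7 transcripts, other mitochondrially encoded rows, up to 4 called genes per pathway list and comparison, of which a part is given, and the 10 genes most like the mean of the 7. Gm13340 and the per-age library orders were chosen after values were seen. The transcripts and lists were chosen with earlier results of these data known. One marker of the B cell list is not reported here and was left out of its sum.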

Additional observations from a re-analysis of the deposited data

Results flagged for a closer look

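Among 24 sets of 6 libraries (7 transcripts and their summed share at 3 ages), 3 had 1 library far from the others. Chance flags about 1 in 20 of independent, normally distributed sets. These sets share libraries and the summed share is made of the same transcripts, so 3 of 24 cannot be read against that rate. mt-Nd2 at 26 weeks had 35.6 CPM in replicate 5, against 4.25 to 15.8 CPM in the others. mt-Nd5 at 14 weeks had 4.89 CPM in replicate 3, against 10.1 to 12.6 CPM in the others. mt-Nd5 at 20 weeks had 10.0 CPM in replicate 5, against 0.0958 to 3.71 CPM in the others.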

How the results depend on the processing

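Of 624 recomputed log2 fold changes of single transcripts, 581 kept their direction and side of the threshold, 20 lost a call, 12 gained one and 11 changed sign. All sign changes were of mt-Nd2 at 20 against 14 weeks (main value -0.03), which was 0.032 with upper quartile factors, 0.14 with library totals alone, 0.00010 with DESeq2, 0.11 with the replicate block, 0.37 with GC content offsets, 0.22 with length offsets and -0.44 to 0.36 when 1 library was left out. The number of the 7 called at 20 against 14 weeks was 1 with GC content offsets and 1 to 4 when 1 library was left out (1 without replicate 4 or 6 of 14 weeks or replicate 2 or 4 of 20 weeks). At 26 against 14 weeks it was 1 with length offsets, where 433 genes in all were called in place of 1111, and 3 to 7 when 1 library was left out (3 without replicate 5 of 26 weeks). The cause was not tested. With the replicate block 3, 5 and 7 were called, as without it; the numbers only name samples, and in 4 of 18 same-numbered pairs the library correlated best with its own number. Over all genes, DESeq2 called 1727, 1808 and 2553 genes in place of 1030, 1111 and 1617 at 20 against 14, 26 against 14 and 26 against 20 weeks. For 26 against 14 weeks, limma-voom called 2633, the fit of 2 ages 1710, and fits without replicate 1, 2 or 6 of 26 weeks 652, 733 and 726. Over the 3 ages limma-voom called 4005 in place of 2321. The share of calls that were higher, 48.3%, 49.6% and 50.2% in the 3 comparisons, was 67.5% and 31.4% with library totals (20 against 14 and 26 against 20 weeks), 73.7% and 28.4% with GC content offsets and 74.3% and 26.1% with length offsets in the same comparisons. At 26 against 14 weeks it was 62.0% with upper quartile factors and 59.8% with DESeq2. The median of all genes moved by up to 0.24 (log2) under these settings, and by 0.14 with limma-voom and 0.12 with the replicate block at 26 against 20 weeks. Leaving ribosomal RNA and immunoglobulin rows out of the totals left the summed shares within their SD.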
